A study of Mus musculus with 76 samples.

Results

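The genes described here are 10 of the 55487 gene identifiers in the tables. They encode the RANK, CD40 and lymphotoxin beta receptor systems of the thymic medulla, together with the related receptor Tnfrsf12a. They were chosen by symbol and not by a threshold on a measured value, but earlier results of these data were known when they were chosen. The set holds 4 ligand genes (Tnfsf11, Cd40lg, Lta and Ltb), 4 signalling receptor genes (Tnfrsf11a, Cd40, Ltbr and Tnfrsf12a), the decoy receptor gene Tnfrsf11b and the adaptor gene Traf6. Each was matched by gene symbol to 1 identifier.

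The study sequenced bulk mouse RNA in 76 libraries, in 26 groups of SOD1-G93A and wild-type (WT) origin. Thymic populations were sorted, namely epithelial cells of the cortex (cTEC) and of the medulla (mTEC), regulatory T cells (Treg) and T cells labelled CD4, at day 30 (d30) and day 120 (d120) in 46 libraries, with 3 libraries in each group except WT cTEC and WT CD4 at d30, which had 2. Whole thymus and the tissue labelled iLN, both at d120, each had 3 libraries per genotype. Cultures titled Tregdiff had 3 libraries per genotype at T0, described as having no activation, and at activation T2 and T20, for which the labels give no unit. The genotype label was Sod1Mut or WT, while the strain label read SOD1-G93A for all libraries, WT included. In the d30 count table the columns of WT libraries also carry SOD1 in their names, and their group was taken from the sample titles. The library numbers of the WT cTEC libraries of d30, titled replicates 2 and 3, follow those of WT replicates 3 and 1 of the other populations, so these replicate numbers are in doubt. SOD1-G93A mice carry a mutant human SOD1 transgene and are used as a model of amyotrophic lateral sclerosis. The transgenic line, sex, sorting gates and activating agents were not given in the sources used here, and nothing stated that libraries of a group came from separate mice, so p-values measure the spread between these libraries, which may be partly technical.

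RANK, encoded by Tnfrsf11a, CD40 and the lymphotoxin beta receptor are receptors of the tumour necrosis factor family on medullary epithelial cells and their precursors. Their ligands come mainly from positively selected thymocytes, innate lymphoid cells and other haematopoietic cells, an exchange known as thymic crosstalk. The receptors signal through TRAF adaptors to NF-kappaB and sustain medullary epithelial cells that express Aire, the regulator of tissue-restricted antigens. Osteoprotegerin, encoded by Tnfrsf11b, is a soluble decoy that binds RANK ligand.

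The lymphotoxin genes Lta and Ltb are neighbours on chromosome 17, and RANK ligand (Tnfsf11) is the other ligand gene for which an upstream sequence was at hand. The bases upstream of their RefSeq starts (GRCm38.p6, 5′ to 3′ on the strand of the gene) are shown because these 3 ligand genes carry the differences between populations and days described below, and Tnfrsf12a is shown because it had the largest rise between days. Capitals mark a match to the kappaB consensus.
Tnfsf11 (chr14:78308044-78308293, minus strand): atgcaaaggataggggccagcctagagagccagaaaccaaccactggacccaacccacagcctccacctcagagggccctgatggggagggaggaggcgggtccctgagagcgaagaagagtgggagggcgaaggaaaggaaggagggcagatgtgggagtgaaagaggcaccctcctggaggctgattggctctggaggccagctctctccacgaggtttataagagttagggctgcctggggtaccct
Lta (chr17:35205352-35205601, minus strand): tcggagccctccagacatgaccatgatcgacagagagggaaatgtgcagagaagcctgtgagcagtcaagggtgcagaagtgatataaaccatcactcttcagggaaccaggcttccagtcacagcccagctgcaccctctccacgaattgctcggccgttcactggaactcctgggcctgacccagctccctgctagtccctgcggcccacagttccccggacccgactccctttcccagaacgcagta
Ltb (chr17:35194257-35194438, plus strand): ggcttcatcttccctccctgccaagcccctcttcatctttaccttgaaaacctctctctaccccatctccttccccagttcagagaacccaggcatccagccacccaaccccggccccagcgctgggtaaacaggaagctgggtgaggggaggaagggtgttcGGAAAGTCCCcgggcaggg
Tnfrsf12a (chr17:23677469-23677699, minus strand): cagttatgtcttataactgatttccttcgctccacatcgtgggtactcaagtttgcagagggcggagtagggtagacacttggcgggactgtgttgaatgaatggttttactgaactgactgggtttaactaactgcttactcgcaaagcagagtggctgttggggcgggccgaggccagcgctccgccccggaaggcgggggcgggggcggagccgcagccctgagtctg
RefSeq windows were at hand for 7 of the 10 genes (also Tnfrsf11a, Ltbr and Traf6). Both strands of the 250 bases before each start were searched, and printed sequence was shortened where the GENCODE gene model begins further upstream. One match was found, in Ltb, beginning 87 bases before the start and read on the opposite strand. Of 32851 RefSeq windows of this length, 1281 (3.9%) held a match. The AP-1 motif TGANTCA was in none of the 7 windows and in 2217 (6.75%) of all windows. A match is a description of the letters and not a binding site.

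Levels are CPM, the counts of a gene per 1e+06 counts in genes that passed the filter, with TMM scaling. A gene was called changed when the p-value of edgeR's quasi-likelihood test, adjusted by Benjamini-Hochberg over all genes tested, was under 0.05. Log2 fold changes carry standard errors, and a set of libraries from both genotypes pooled is given as its lowest, median and highest value or as mean ± SD. Total counts ran from 837050 to 36919936 in the sorted libraries, except for mTEC SOD1 replicate 1 at d30, which had 15135. They ran from 63887 to 894958 in iLN and from 171619 to 19699330 in the cultures. The cTEC libraries had 4575299 to 16776303 counts and 20851 to 24970 detected genes at d30. At d120 they had 1269529 to 3083181 counts and 7627 to 15679 detected genes. The part of depth in the cTEC values at 0 was not tested. The lowest SOD1 library exceeded the highest WT library in the Sod1 level in 12 of 13 sets, the exception being mTEC at d30. There the lowest SOD1 value, 34.4 CPM, was that of the library with 15135 counts, and the highest WT value was 35.1 CPM. Each sort was checked against its markers. The mean level of Psmb11, the cortical proteasome subunit gene, was 1080 CPM in cTEC at d30 and 218 CPM at d120, and that of Aire was 918 CPM in mTEC at d30 and 1162 CPM at d120, against 13.1 and 4.29 CPM in cTEC. The 10 mTEC markers together separated the epithelial sorts less well. They summed to 1347 to 2252 CPM (median 1986) in cTEC and 1721 to 4942 CPM (median 4052) in mTEC at d30, and to 1794 to 8463 CPM (median 6495) in cTEC and 5636 to 11052 CPM (median 7899) in mTEC at d120, so that the ranges overlapped on both days. Of these, Ccl21a averaged 2989 CPM in cTEC and 3181 CPM in mTEC at d120, and Krt5 1593 and 998 CPM. Foxp3, the Treg transcription factor gene, was 52.3 ± 14.5 CPM in Treg and 18.4 ± 4.35 CPM in CD4 at d30. At d120 it was 132 ± 71.4 CPM in Treg (n = 6) and 12.6 ± 4.41 CPM in CD4 (n = 6). The 8 Treg markers together did not separate these sorts, with 1386 to 1546 CPM in Treg and 1063 to 1703 CPM in CD4 at d30, and 1503 to 3112 CPM in Treg and 1427 to 1954 CPM in CD4 at d120. Il2ra, the CD25 gene and one of these markers, did separate them. It held 535 to 740 CPM in Treg and 13.7 to 26.7 CPM in CD4 at d30. At d120 it held 345 to 754 CPM in Treg and 0 to 30.4 CPM in CD4. CD4 libraries also held Cd8a, at a mean of 301 CPM at d30, against 179 CPM of Cd4. Library numbering differed between the days in the labels, so day and library series cannot be told apart. In bulk RNA, fewer cells of a type and less RNA per cell cannot be told apart.

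Mean RANK ligand levels were higher in each T cell sort than in each epithelial sort of the same day, and highest in Treg at d30. Tnfsf11 (ENSMUSG00000022015.8, chr14:78277445-78308043, minus strand, GRCm38) measured 90.0, 63.9 and 104 CPM in SOD1 Treg and 101, 101 and 65.9 CPM in WT Treg at d30. CD4 cells of the same day held 17.3, 19.5 and 22.2 CPM in SOD1 and 16 and 17.7 CPM in WT libraries. Every Treg library at d30 was above every CD4 library. The 8 markers of double-positive thymocytes were also higher in Treg at d30, summing to 1919 to 2750 CPM against 789 to 1522 CPM in CD4, and their part in the Tnfsf11 level was not tested. The fitted difference of Treg over CD4 was 2.27 ± 0.80 on the log2 scale at d30, but it did not pass over all genes (adjusted p = 0.262). When only the 2 T cell populations were fitted the difference was 2.26 and passed (adjusted p = 0.0014). At d120 the difference was 2.10 ± 0.75 (adjusted p = 0.096), and 1.80 with the 2 populations alone (adjusted p = 0.00375). Fitted on the libraries of one day, the difference was 2.24 at d30 (adjusted p = 0.000749) and 1.93 at d120 (adjusted p = 0.604).

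None of the 10 genes was called between Treg and CD4 at d30, where 0.856% of all genes were called, with 2 at an unadjusted p under 0.05. DESeq2 called 0 as well, and limma's voom 3 (Tnfsf11, Ltb and Traf6). At d120 only Ltbr was called, at 2.64 ± 0.60 (adjusted p = 0.00497), where 5.25% of all genes were. It measured 8.52, 9.03 and 14.7 CPM in SOD1 Treg and 7.26, 12.4 and 5.36 CPM in WT Treg, while CD4 libraries held 0, 0.998 and 0 CPM in SOD1 and 3.25, 14.2 and 0.844 CPM in WT. One WT CD4 library lay inside the Treg range. Fibroblast and endothelial markers at d120 summed to 53.0 to 113 CPM in Treg and 12.6 to 46.4 CPM in CD4. Myeloid and dendritic cell markers summed to 276 to 448 CPM in Treg and 50.7 to 635 CPM in CD4, ranges that overlapped. The part of such cells in the Ltbr level was not tested. Fitted on d120 libraries alone, the difference was 2.50 and did not pass (adjusted p = 0.107).

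In epithelial cells RANK ligand was low. At d30 cTEC held between 5.28 and 12.9 CPM (median 5.83) and mTEC between 0 and 17.6 CPM (median 3.11). At d120 all 6 cTEC libraries were at 0, and mTEC ranged from 0 to 11.7 CPM. The CD4 range overlapped that of mTEC on both days, at 16 to 22.2 CPM at d30 and 0 to 13.1 CPM at d120. Averaged over both epithelial and both T cell sorts, Tnfsf11 was lower in epithelial cells by -2.74 ± 0.58 at d30 (adjusted p = 0.000231). At d120 the T cell sorts exceeded cTEC, whose 6 libraries summed to no count, by at least 22-fold for CD4 and at least 96.3-fold for Treg, against a floor of 3 counts over the group (0.276 CPM).

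CD40 ligand, which helper T cells display after antigen contact, was a T cell transcript at low level. Cd40lg (ENSMUSG00000031132.1, chrX:57212143-57224042, plus strand) averaged 5.98 ± 2.04 CPM in CD4 at d30 and 10.2 ± 6.64 CPM at d120, against 3.15 ± 1.15 and 3.15 ± 2.44 CPM in Treg. In epithelial sorts the mean never exceeded 0.605 CPM, with 4 of 5 cTEC and 2 of 6 mTEC libraries at 0 at d30, and all 6 cTEC and 5 of 6 mTEC libraries at 0 at d120. Epithelial cells were lower by -4.79 ± 0.88 at d30 (adjusted p = 4.46e-05). They were lower at d120 too (adjusted p = 2.9e-07), where CD4 was at least 37-fold above cTEC.

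Lymphotoxin beta was the most abundant ligand transcript of the thymic T cells. Ltb (ENSMUSG00000024399.5, chr17:35194439-35196320, plus strand) encodes the membrane anchor of the lymphotoxin heterotrimer that binds Ltbr. CD4 libraries at d30 ranged from 125 to 234 CPM with a median of 195, and Treg libraries from 72.1 to 128 CPM with a median of 78.3. At d120 CD4 libraries ranged from 66.6 to 253 CPM (median 185) and Treg libraries from 115 to 277 CPM (median 162). The ranges of the 2 T cell sorts nearly separated at d30 and overlapped at d120. Per kilobase of exon, Ltb ranked first among the 10 genes in both T cell sorts on both days, at 56.9 CPM per kb in Treg at d30, where Tnfsf11 followed at 39.2 CPM per kb. Epithelial cells were lower in Ltb by -1.73 ± 0.31 at d30 (adjusted p = 1.86e-05) and by -3.63 ± 0.32 at d120 (adjusted p = 1.73e-12).

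Lymphotoxin alpha had another order than Ltb. Lta (ENSMUSG00000024402.5, chr17:35203165-35205351, minus strand) encodes the soluble partner that joins Ltb in the heterotrimer. At d30 its highest mean among the sorted populations was in mTEC. It averaged 30.8 ± 18.9 CPM in mTEC at d30 and 24.6 ± 22.8 CPM at d120 (n = 6 each). The highest mTEC value at d30, 68.8 CPM, was that of the library with 15135 counts, and the median was 24.2 CPM. At d120 the order depended on the genotype: SOD1 libraries averaged 40.2 CPM in mTEC and 12.7 CPM in CD4, and WT libraries 8.95 CPM in mTEC and 24.2 CPM in CD4. Over both genotypes CD4 held 10.6 ± 2.73 CPM at d30 and 18.4 ± 8.45 CPM at d120, and Treg 7.76 ± 4.46 and 6.81 ± 3.77 CPM. In cTEC it was 2.13 ± 2.04 CPM at d30, and at d120 5 of 6 libraries were at 0 while WT replicate 2 held 45.9 CPM. The mean of both epithelial sorts did not pass against the T cells at either day (adjusted p = 0.829 at d30 and 0.057 at d120). In several alternatives it passed at d120, each time as lower in the epithelial sorts. These were DESeq2 (adjusted p = 5.32e-16), voom (-1.69, adjusted p = 0.00336) and the replicate block (-2.17, adjusted p = 0.036). The others were no filter on low counts (adjusted p = 0.0482), leaving out libraries under 300000 counts (adjusted p = 0.0477), and leaving out mTEC SOD1 replicate 2 or cTEC WT replicate 2 of d120. Reads that Lta and Ltb share with the microRNA genes Mir6974 and Mir6973a, which lie inside them on the same strand, cannot be told apart.

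**Figure D1:**
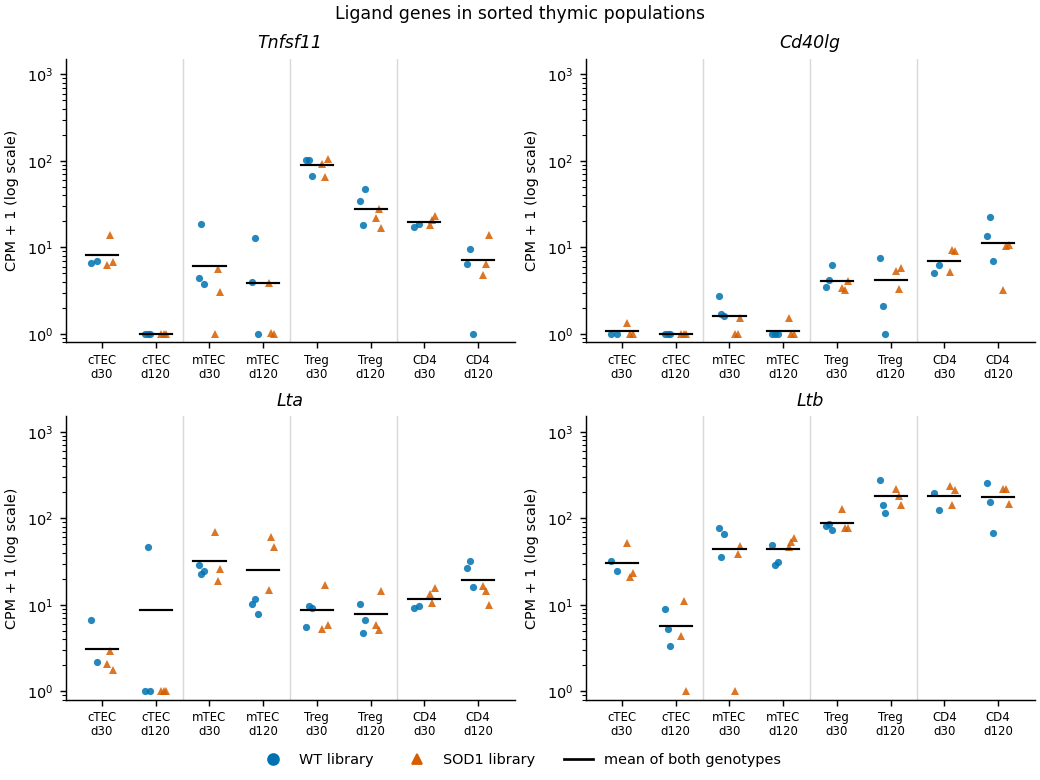
CPM + 1 on a log scale for the ligand genes in each sorted population and day, with circles for WT libraries, triangles for SOD1 libraries and a line at the mean of both genotypes. Tnfsf11 sits highest in Treg at d30 (63.9 to 104 CPM) and at 0 in all cTEC libraries at d120, while Lta at d30 has its highest mean in mTEC (30.8 CPM).

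The receptors had the opposite placement. In epithelial against T cell sorts, 8 of the 10 genes were called at d30 (5 higher, 3 lower), against 38% of all genes tested, and 8 at d120 (5 higher, 3 lower), against 43.2%. The 5 higher in epithelial cells were Tnfrsf11a, Tnfrsf11b, Cd40, Ltbr and Tnfrsf12a, and the 3 lower were Tnfsf11, Cd40lg and Ltb. The median log2 difference of the 10 genes was 0.65 at d30 and 1.45 at d120, against 0.31 and 0.18 over all genes.

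RANK was mainly an mTEC transcript. Tnfrsf11a (ENSMUSG00000026321.7, chr1:105780718-105847981, plus strand) measured 68.8, 298 and 269 CPM in SOD1 mTEC and 220, 221 and 240 CPM in WT mTEC at d30, the lowest value being that of the library with 15135 counts. At d120 the SOD1 libraries held 180, 218 and 148 CPM and the WT libraries 156, 275 and 86.8 CPM. The cTEC libraries ranged from 10.1 to 79.2 CPM at d30 and from 1.34 to 25.5 CPM at d120, so that mTEC exceeded cTEC without overlap at d120 only. The difference of mTEC over cTEC was 2.46 ± 0.60 at d30 (adjusted p = 0.00332) and 4.71 ± 0.62 at d120 (adjusted p = 6.17e-07). Treg held 14.1 ± 6.66 CPM at d30 and 4.61 ± 2.07 CPM at d120.

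Osteoprotegerin was the receptor gene with the highest level per length in mTEC at d30, at 120 CPM per kb, ahead of Cd40 at 75.7 and Tnfrsf11a at 36.6. Tnfrsf11b (ENSMUSG00000063727.3, chr15:54250619-54278484, minus strand) measured 103, 392 and 515 CPM in SOD1 and 316, 342 and 355 CPM in WT mTEC at d30. At d120 it measured 488, 479 and 201 CPM in SOD1 and 312, 156 and 67.5 CPM in WT mTEC. In cTEC it ranged from 0.922 to 12.9 CPM at d30 and from 0 to 35.0 CPM at d120, all below the lowest mTEC library of the same day. mTEC exceeded cTEC by 5.59 ± 1.0 at d30 (adjusted p = 0.000205) and 4.12 ± 0.82 at d120 (adjusted p = 0.000273). Its lead over the T cell sorts at d120, 6.47 ± 0.70, was called with all libraries but not when cTEC SOD1 replicate 1 was left out (4.10, adjusted p = 0.9999); the other SOD1 cTEC libraries were at 0.

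CD40 was found in both epithelial sorts. Cd40 (ENSMUSG00000017652.16, chr2:165055627-165072948, plus strand) averaged 153 ± 100 CPM in cTEC and 258 ± 79.8 CPM in mTEC at d30, a difference of 0.78 ± 0.57 that did not pass (adjusted p = 0.386) but passed in the fit of d30 libraries alone (0.81, adjusted p = 0.0411) and with voom (1.19, adjusted p = 1.44e-05). At d120 it averaged 56.3 ± 37.8 CPM in cTEC and 320 ± 93.8 CPM in mTEC, a difference of 2.55 ± 0.56 that passed (adjusted p = 0.000793). The difference between these days, 1.77 ± 0.77, did not pass (adjusted p = 0.244), though it did without cTEC SOD1 replicate 2 of d120 (2.65, adjusted p = 0.0276). The lowest mTEC library at d120, at 173 CPM, was above the highest cTEC library at 101 CPM. Treg libraries held 27.1 ± 9.71 CPM at d30 and 25.4 ± 10.3 CPM at d120. In Treg the B cell marker genes summed to between 398 and 1404 CPM at d30 and between 1273 and 4612 CPM at d120. B cells express Cd40, and their part in the Cd40 level of Treg was not tested.

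The lymphotoxin beta receptor leaned to the cortical sort at d30. Ltbr (ENSMUSG00000030339.7, chr6:125306571-125313885, minus strand) measured 76.8, 102 and 102 CPM in SOD1 and 42.3 and 86.6 CPM in WT cTEC at d30, and 0 to 31.9 CPM in mTEC. The 0 in mTEC was that of the library with 15135 counts. All cTEC libraries were above all mTEC libraries at d30. mTEC was lower by -1.76 ± 0.51 at d30 (adjusted p = 0.0116), while the difference of -0.78 ± 0.47 at d120 did not pass (adjusted p = 0.222). At d120 the ranges overlapped, with 42.5 to 96.3 CPM in cTEC and 16.3 to 68.3 CPM in mTEC.

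Between mTEC and cTEC, 4 of the 10 genes were called at d30 (Tnfrsf11a, Tnfrsf11b and Lta higher in mTEC, Ltbr lower), against 22.3% of all genes. At d120 6 were called, all higher in mTEC, against 28.7% of all genes. Lta was higher in mTEC by 3.65 ± 0.89 at d30 (adjusted p = 0.00352) and by a fitted 5.24 ± 1.21 at d120 (adjusted p = 0.00129). The size at d120 rests on the SOD1 cTEC libraries, which were all at 0 for Lta. Over both genotypes Lta then averaged 24.6 CPM in mTEC and 7.65 CPM in cTEC. Ltb was higher in mTEC at d120 by 3.17 ± 0.46 (adjusted p = 3.25e-06), with 28.0 to 58.6 CPM in mTEC and 0 to 10.1 CPM in cTEC. At d30 its difference of 0.70 ± 0.44 did not pass (adjusted p = 0.288), but it passed with DESeq2 (0.98, adjusted p = 0.0221), voom (0.87, adjusted p = 0.0315) and the d30 libraries alone (0.72, adjusted p = 0.0351). The 6 innate lymphoid cell markers were higher in mTEC too, summing to 103 to 266 CPM against 40.7 to 71.7 CPM in cTEC at d30 and to 132 to 277 CPM against 18.7 to 62.2 CPM at d120. The myeloid and dendritic cell markers summed to 99.0 to 1091 CPM in mTEC and 12.7 to 165 CPM in cTEC at d120. The part of these cells in the Lta and Ltb levels, and of the mTEC markers in cTEC given above, was not tested. Tnfsf11 at d120 was at least 10.6-fold higher in mTEC than in cTEC, which was at 0 (adjusted p = 0.00325). That call was lost without mTEC SOD1 replicate 1 (adjusted p = 0.129). Without cTEC WT replicate 3 at d30, 1 of the 4 calls at d30 was left, with adjusted p-values of 0.0609 for Tnfrsf11a, 0.0949 for Ltbr and 0.0613 for Lta.

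TRAF6, the adaptor that carries RANK and CD40 signals, was found in all sorts. Traf6 (ENSMUSG00000027164.8, chr2:101678429-101701669, plus strand) was not called between mTEC and cTEC (0.30 at d30, and 0.88 with adjusted p = 0.0668 at d120), between Treg and CD4, or between the mean of the epithelial and of the T cell sorts. Taken alone, cTEC was below Treg at d120 by -0.92 ± 0.37 (adjusted p = 0.0432). In Treg its range was 112 to 159 CPM at d30.

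**Figure D2:**
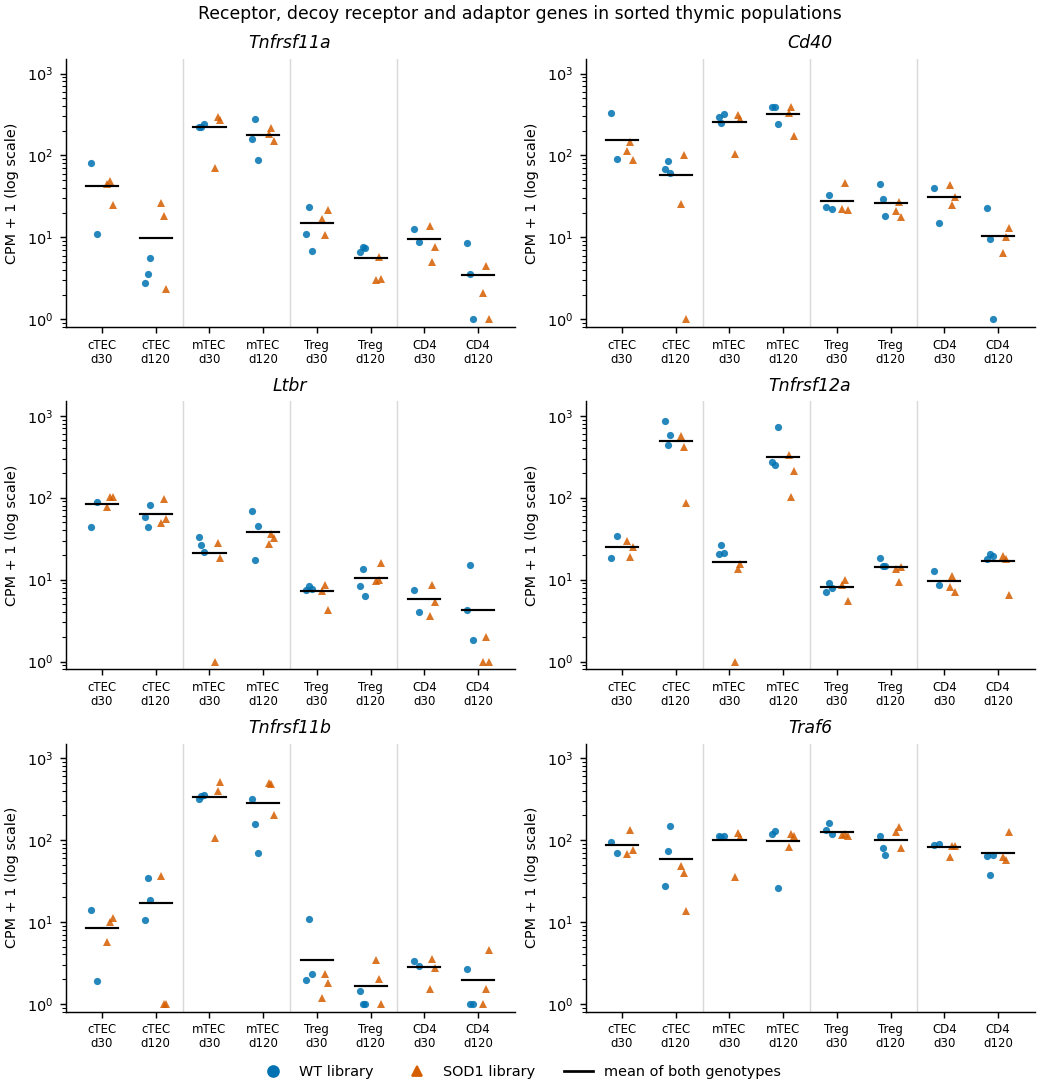
CPM + 1 on a log scale for the receptor, decoy receptor and adaptor genes in each sorted population and day, with circles for WT libraries, triangles for SOD1 libraries and a line at the mean of both genotypes. Tnfrsf11a and Tnfrsf11b are highest in mTEC, Ltbr at d30 is higher in every cTEC library than in every mTEC library, and Tnfrsf12a is at least 84.2 CPM in every epithelial library at d120.

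Between d30 and d120 the largest rise was in Tnfrsf12a, which encodes the receptor for the cytokine TWEAK. Tnfrsf12a (ENSMUSG00000023905.15, chr17:23675445-23677468, minus strand) measured 28.2, 18.1 and 24.1 CPM in SOD1 and 17.6 and 33.5 CPM in WT cTEC at d30. At d120 it measured 567, 414 and 84.2 CPM in SOD1 and 866, 435 and 580 CPM in WT cTEC. In mTEC it measured 0, 12.5 and 14.5 CPM in SOD1 and 19.8, 25.4 and 20.3 CPM in WT at d30, then 329, 102 and 211 CPM in SOD1 and 271, 248 and 733 CPM in WT at d120. The 0 in SOD1 mTEC at d30 was that of the library with 15135 counts. No epithelial library at d120 was as low as any at d30. It rose by 4.48 ± 0.54 in cTEC (adjusted p = 0.00116) and by 4.16 ± 0.40 in mTEC (adjusted p = 0.00014). Per kilobase it became the highest of the 10 genes in both epithelial sorts at d120, at 254 CPM per kb in cTEC and 163 CPM per kb in mTEC.

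In T cells the same gene stayed within 4.47 to 19.4 CPM. It rose in Treg by 0.88 ± 0.26 (adjusted p = 0.0237) and did not pass in CD4 (1.14, adjusted p = 0.142). The change between days was larger in epithelial than in T cell sorts by 3.33 ± 0.39 (adjusted p = 2.01e-07). Tnfsf12, the gene of its ligand TWEAK, stayed low in all sorts, at 4.28 ± 3.25 CPM in cTEC and 6.74 ± 2.73 CPM in mTEC at d120.

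Besides Tnfrsf12a, 1 member was called in cTEC between days, so that 2 of 9 tested were called against 4.63% of all genes. That was Tnfsf11, with 5.28, 12.9 and 5.83 CPM in SOD1 and 5.69 and 5.95 CPM in WT libraries at d30 and 0 in all 6 libraries at d120, at least 25.8-fold lower (adjusted p = 0.0245). The call was lost when any of SOD1 replicates 1, 2 or 3 or WT replicates 2 or 3 of d30 was left out (adjusted p up to 0.135). Ltb fell short of the threshold in cTEC at -2.44 ± 0.90 (adjusted p = 0.153), with 19.9 to 50.7 CPM at d30 and 0 to 10.1 CPM at d120, ranges that did not overlap. Tnfrsf11a in cTEC was at -2.43 ± 0.84 (adjusted p = 0.126). Without cTEC SOD1 replicate 3 of d120, both passed (adjusted p = 0.0343 for Ltb and 0.0429 for Tnfrsf11a). The 9 T cell marker genes summed to 1370 to 1847 CPM in cTEC at d30 and to 32.1 to 313 CPM at d120, against 2659 to 6941 CPM in the T cell sorts. The 10 myeloid and dendritic cell markers summed to 170 to 991 CPM in cTEC at d30 and to 12.7 to 165 CPM at d120. At d30 all 9 T cell markers were detected in every cTEC library. The mTEC markers of cTEC ran the other way, as given above. The cTEC libraries of d120 also had fewer counts and detected genes than those of d30, as given above. The part of depth and of these markers' cells in the Tnfrsf12a, Tnfsf11, Ltb and Tnfrsf11a levels of cTEC was not tested.

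In mTEC Tnfrsf12a was the only call among 9 tested, where 3.16% of all genes were called. The other 8 lay between -1.15 (Tnfsf11) and 0.67 (Ltbr) on the log2 scale, and none of these passed. At d120, 3 cTEC libraries and 2 mTEC libraries held Ighm, an immunoglobulin heavy chain gene, at 3997 to 15269 CPM, while the B cell receptor gene Cd79a in those libraries was between 0 and 40.8 CPM. WT cTEC replicate 2, the d120 cTEC library in which Lta was detected, held the most of both, and the part of B lineage RNA in its Lta level was not tested.

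In Treg 5 of the 10 genes were called between days, where 29.9% of all genes were. Tnfsf11 fell by 1.77 ± 0.23 (adjusted p = 0.000163), from the values given above to 21.1, 26.5 and 15.6 CPM in SOD1 and 33.3, 17.1 and 46 CPM in WT libraries at d120. No Treg library at d120 reached the lowest one at d30. Tnfrsf11a fell by 1.70 ± 0.36 (adjusted p = 0.00351), from between 5.79 and 22.5 CPM to between 2.03 and 6.68 CPM, with a small overlap of the ranges. Ltb rose by 1.01 ± 0.18 (adjusted p = 0.00117). Traf6 fell by 0.37 ± 0.12 (adjusted p = 0.0346). The Traf6 call was lost without any one of SOD1 replicates 1 of d30 and 3 of d120 or WT replicates 1, 2 and 3 of d30 and 3 of d120, and the Tnfrsf12a call without SOD1 replicate 3 or WT replicates 1 or 2 of d30, with adjusted p-values up to 0.127 and 0.105 over all alternatives. Foxp3 in Treg rose in mean from 52.3 to 132 CPM over the same days, a value given without a test, and the B cell markers moved as given above. The double-positive thymocyte markers in Treg went from 1919 to 2750 CPM at d30 to 693 to 1222 CPM at d120, without overlap. The part of these marker levels in the changes of Treg was not tested. In CD4, none of 9 was called, where 10.6% of all genes were. The unadjusted p was under 0.05 for 2 of them, Lta at 1.06 ± 0.43 (adjusted p = 0.123) and Tnfrsf12a, and both were called by DESeq2 (adjusted p = 0.022 and 0.0391). Voom called these and Tnfsf11. Tnfsf11 in CD4 was at -1.32 ± 0.65 (adjusted p = 0.203), and no difference from the change in Treg was detected (difference -0.17 ± 1.05, adjusted p = 0.9999).

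**Figure D3:**
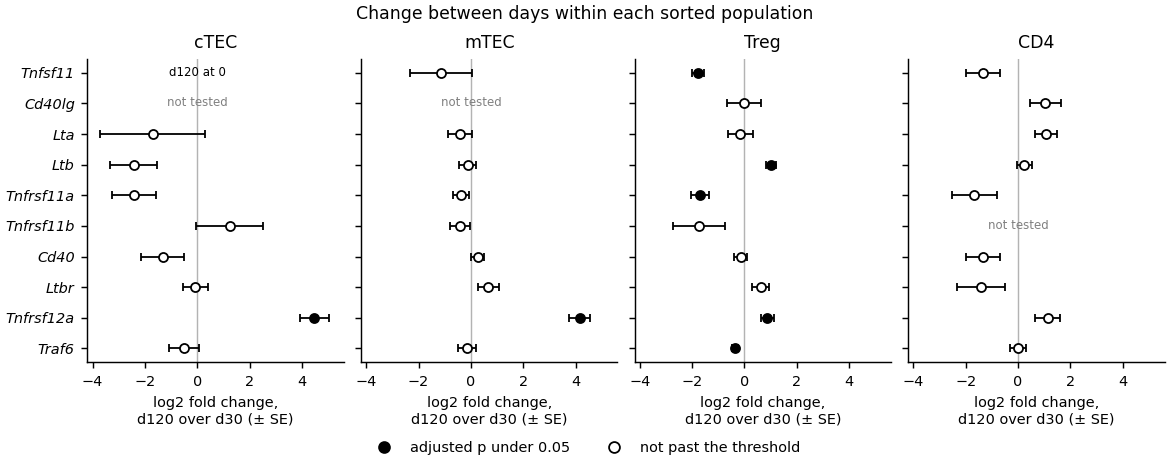
Log2 fold change of d120 over d30 with its standard error for each gene in each sorted population, filled where the adjusted p is under 0.05. Tnfrsf12a stands at 4.48 in cTEC and 4.16 in mTEC, Tnfsf11 falls by 1.77 in Treg, and Tnfsf11 in cTEC is written as a label because all d120 libraries are at 0.

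The change between days was also compared between populations. Between epithelial and T cell sorts, 2 of the 10 genes differed, against 4.12% of all genes, namely Tnfrsf12a and Ltb (-1.89 ± 0.42, adjusted p = 0.0051). Between mTEC and cTEC, 2 differed, against 2.93% of all genes: Ltb by 2.47 ± 0.62 (adjusted p = 0.0178) and Tnfsf11 (adjusted p = 0.0371), whose fitted size rests on cTEC being at 0 at d120. The Ltb call was lost in 3 of 31 alternatives, namely with the compared populations alone (adjusted p = 0.219), with voom (0.0869) and without WT cTEC replicate 2 of d30 (0.0628). The Tnfsf11 call was lost in 17 of 31, with adjusted p up to 0.302, reached without SOD1 mTEC replicate 1 of d120. Between Treg and CD4 none differed, against 0.0644% of all genes, 1 having an unadjusted p under 0.05 (Ltbr, 2.28 ± 0.79, adjusted p = 0.373), while voom called 3.

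In culture, Lta and Tnfsf11 rose with activation and Cd40lg fell. Lta rose by 4.61 ± 0.56 from T0 to T2 (adjusted p = 2.02e-06). It measured 15.2, 14.5 and 16.5 CPM in SOD1 and 0, 100 and 4.91 CPM in WT libraries at T0. At T2 it measured 270, 453 and 730 CPM in SOD1 and 674, 878 and 831 CPM in WT, and at T20 727, 570 and 430 CPM in SOD1 and 609, 830 and 773 CPM in WT. No activated library was as low as any at T0. Tnfsf11 rose by 3.49 ± 0.38 (adjusted p = 7.19e-07), from 1.79 to 10.7 CPM at T0 to 26.1 to 73.7 CPM at T2 and 28.0 to 70.2 CPM at T20. Cd40lg fell by 3.18 ± 0.39 at T2 (adjusted p = 2.78e-06) and by 3.58 ± 0.40 at T20, from 39.2 ± 8.70 CPM to 5.05 ± 4.41 and 2.40 ± 1.87 CPM. The lowest T0 library, at 31.3 CPM, was above the highest activated one at 13 CPM.

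Ltb did not pass at either time. It held 537 ± 55.2 CPM at T0, 463 ± 203 CPM at T2 and 662 ± 59.8 CPM at T20, with differences from T0 of -0.26 ± 0.22 (adjusted p = 0.32) and 0.30 (adjusted p = 0.244). Without WT replicate 2 of T20 the latter was 0.64 and passed (adjusted p = 0.0336). Per kilobase, Ltb led at T0 with 354 CPM per kb. Lta led at T2, at 462 against 306 CPM per kb for Ltb, and at T20, at 475 against 437.

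Of 6 genes tested, 5 were called at T2, where 58.1% of all genes were, and 5 at T20, where 58.2% were. Cd40 rose by 4.17 ± 0.71 at T2 (adjusted p = 8e-05) and 4.81 at T20 (adjusted p = 1.86e-05), from 0.399 ± 0.72 CPM to 9.12 ± 6.63 and 14.9 ± 4.94 CPM. Traf6 rose by 1.07 ± 0.24 at T2 (adjusted p = 0.00094), with means of 59.4, 123 and 123 CPM at T0, T2 and T20. Between T20 and T2 none of the 6 was called, and 0% of all genes were, with 1 of the 6 at an unadjusted p under 0.05 and 0 called by DESeq2 or voom. The receptors Tnfrsf11a, Tnfrsf11b, Ltbr and Tnfrsf12a did not pass the filter on low counts in the cultures, where Tnfrsf11a averaged 1.75, 2.66 and 2.30 CPM at T0, T2 and T20.

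The labels call all culture libraries Treg, yet at T0 Foxp3 averaged 11.3 ± 10.7 CPM and Il2ra, the CD25 gene, 60.0 ± 100 CPM. At T2 they averaged 131 ± 77.0 and 2033 ± 835 CPM. The 8 Treg marker genes summed to 107 to 613 CPM at T0, 2667 to 6080 CPM at T2 and 2687 to 5026 CPM at T20, and the 9 T cell markers to 4455 to 5435, 2125 to 2852 and 2366 to 3035 CPM. Their part in the ligand changes was not tested.

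**Figure D4:**
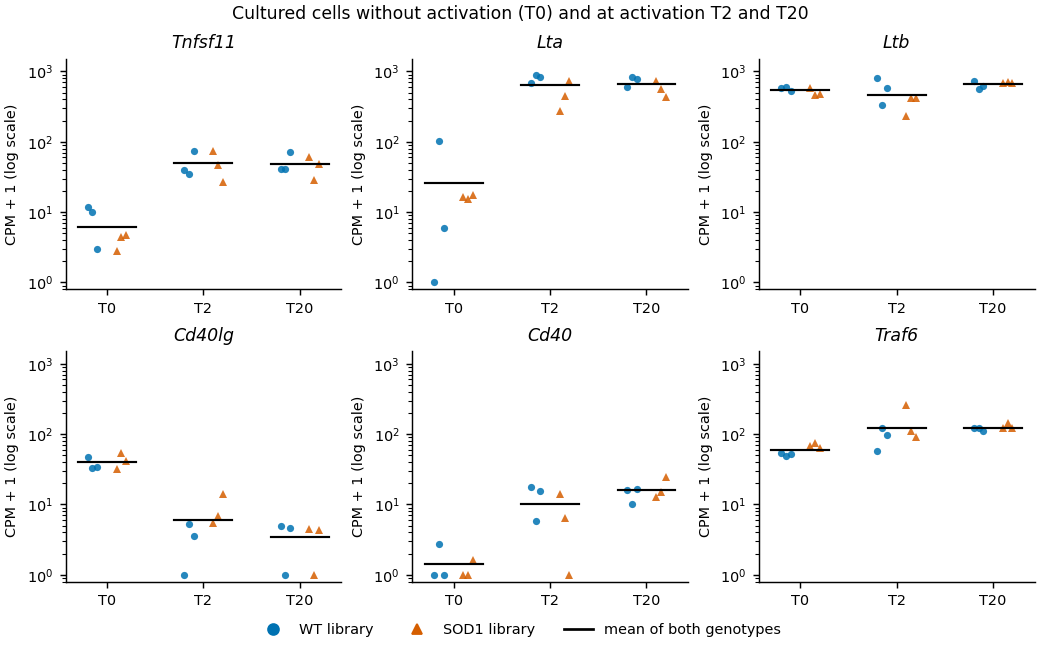
CPM + 1 on a log scale for the 6 tested genes in cultures at T0, T2 and T20, with circles for WT libraries, triangles for SOD1 libraries and a line at the mean of both genotypes. Lta and Tnfsf11 are higher in every activated library than in any T0 library, Cd40lg is lower, and Ltb overlaps across times.

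No member was called between SOD1 and WT. Over 13 comparisons and 104 tests, 0 passed in edgeR, 7 had an unadjusted p under 0.05, and the smallest adjusted p was 0.29. In the 8 sorted comparisons pooled, 0.00822% of all genes were called, in the 3 culture comparisons 0.0848%, in iLN 0.0574% and in whole thymus 0.0831%. SOD1 and WT libraries did not overlap in 12 of 130 combinations of gene and set (9.23%), 5 with SOD1 higher and 7 lower, against 9.97% over all genes. The difference in genotype effect between days was called for none by edgeR.

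The smallest p belonged to Lta in mTEC at d120, where SOD1 libraries held 14, 60.4 and 46.1 CPM and WT libraries 9.32, 10.7 and 6.82 CPM. All SOD1 libraries were above all WT libraries, at 2.15 ± 0.63 on the log2 scale. Lta in cTEC at d120 was above 0 in 1 WT library alone, and DESeq2 called it (adjusted p = 2.78e-19) where edgeR and voom did not. Tnfrsf11a in Treg at d120 measured 2.03, 4.80 and 2.11 CPM in SOD1 and 5.65, 6.68 and 6.39 CPM in WT, again without overlap, at -1.22. Tnfsf11 in Treg at d120 was at -0.77 with overlapping libraries. In iLN, Cd40 measured 20.1, 33.9 and 27.0 CPM in SOD1 and 40.2, 48.9 and 59.9 CPM in WT (-0.94 ± 0.43, adjusted p = 0.968). The myeloid and dendritic markers of iLN ran in the same direction, at 188, 227 and 297 CPM in SOD1 and 402, 505 and 482 CPM in WT, and their part was not tested. Among the genotype tests with counts in both groups, the smallest standard error was 0.12, for Ltb in whole thymus (difference 0.11). Most intervals were far wider. Over the comparisons of each gene, the median half-width of the confidence interval ran from 0.63 (Ltb) to 2.75 (Tnfrsf11b) on the log2 scale. It was 1.64 for Tnfrsf11a, 1.36 for Cd40 and 1.30 for Lta. Differences within such widths were not excluded.

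**Figure D5:**
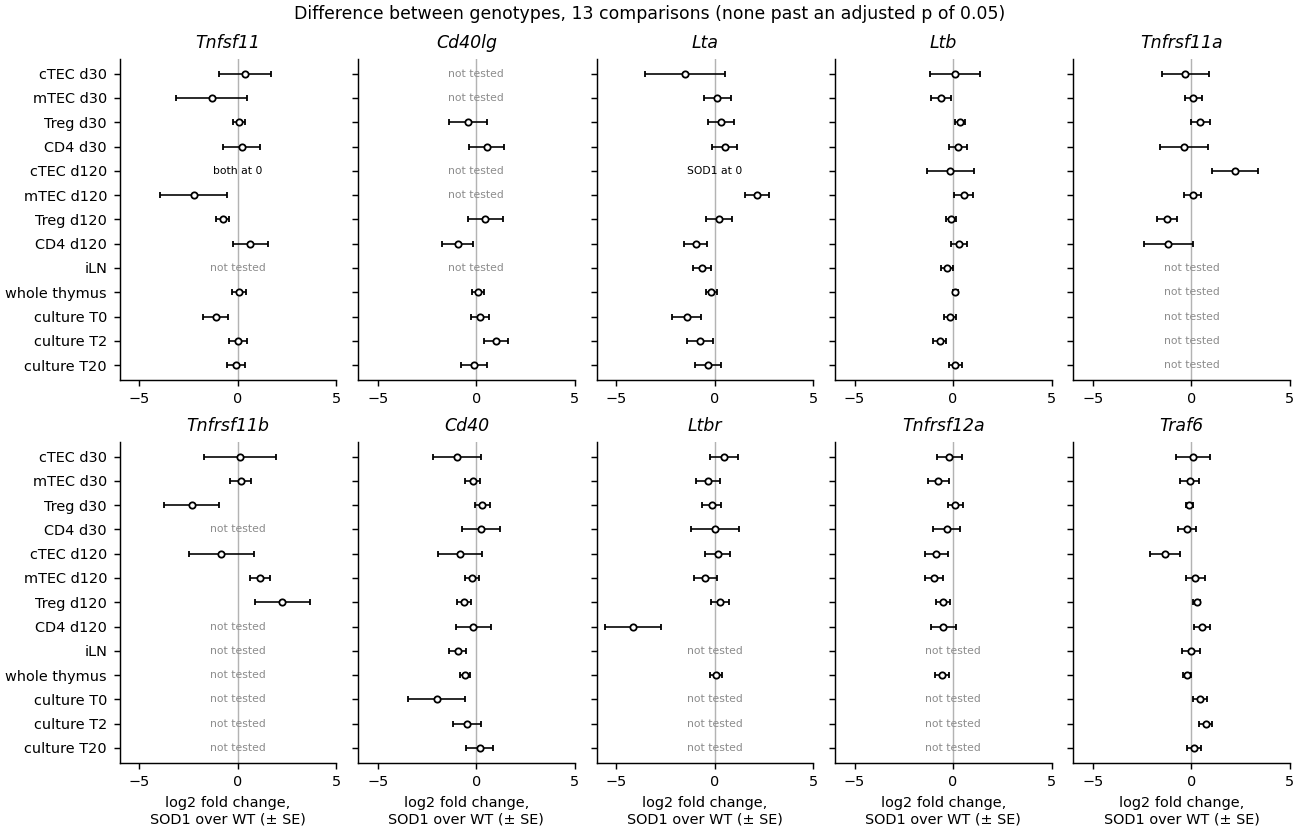
Log2 fold change of SOD1 over WT with its standard error for each gene in 13 comparisons, with labels where a gene was not tested or a group was at 0. None passed an adjusted p of 0.05, with Ltbr in CD4 at d120 the farthest below 0 at -4.15 and Lta in mTEC at d120 at 2.15.

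In whole thymus, Ltb was by far the most abundant of the 10, at 394, 356 and 357 TPM (transcripts per 1e+06) in SOD1 and 388, 351 and 291 TPM in WT. Traf6 followed at 21 to 37.7 TPM and Cd40lg at 11.8 to 25.2 TPM. The receptors of the epithelial cells were low there: Cd40 at 3.40 to 8.95 TPM, Ltbr at 1.29 to 3.74 TPM, Tnfrsf11a at 0.509 to 1.73 TPM and Tnfrsf11b at 0 to 0.78 TPM. Tnfsf11 held 2.13 to 5.69 TPM. In iLN, Ltb averaged 931 ± 188 CPM, Lta 40.5 ± 20.8 CPM and Cd40lg 14.9 ± 9.16 CPM, while Tnfrsf11b was at 0 in all 6 libraries, which allows up to 1.62 CPM over the group.

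Genes of the pathway outside the set were taken from 4 lists. Of 14 medullary genes listed as targets of these receptors, 5 were higher and 3 lower in mTEC than in cTEC at d30 (median 0.61, all genes 0.03), where 22.3% of all genes were called. Aire, Fezf2, Cd80, Ccl21a, Krt5 and Krt14 of this list are also among the mTEC markers used to check the sorts. Counts between mTEC and cTEC therefore partly describe the sort and do not measure signalling. At d120 9 were higher and 0 lower (median 3.46, all genes 0.62), where 28.7% of all genes were called. Aire was higher by 6.21 ± 0.90 at d30 and 8.28 ± 0.88 at d120, and Spib, a transcription factor of these cells, by 4.01 ± 0.74 and 4.86 ± 0.71. Between days, 4 of the 14 rose and 3 fell in cTEC, and 2 rose and 1 fell in mTEC, where 4.63% and 3.16% of all genes were called. Ccl21a, a chemokine that draws thymocytes to the medulla, rose in both, by 2.76 ± 0.40 in cTEC and 1.81 ± 0.31 in mTEC.

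Of 21 TRAF and NF-kappaB genes, 2 rose and 1 fell between days in cTEC, 6 rose and 0 fell in mTEC, 10 rose and 5 fell in Treg, and 4 rose and 1 fell in CD4, where 4.63%, 3.16%, 29.9% and 10.6% of all genes were called. The medians were -0.42, 0.53, 0.58 and 0.32 against -0.30, -0.08, 0.01 and -0.02 over all genes. Nfkbia, the inhibitor that NF-kappaB itself induces, rose by 1.91 ± 0.26 in cTEC, 1.79 ± 0.25 in mTEC and 1.06 ± 0.14 in Treg. Rela rose by 1.51 ± 0.34 in cTEC, 1.60 ± 0.23 in mTEC and 0.71 ± 0.11 in Treg. Traf1 fell by 3.40 ± 0.81 in cTEC, alongside the T cell and myeloid markers given above. In the cultures 8 of the 21 rose and 7 fell at T2, where 58.1% of all genes were called, led by Nfkb2 (2.87 ± 0.25) and Nfkb1 (2.37 ± 0.24) upward and by Traf1 (-1.62 ± 0.25) downward.

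Among 14 other ligands of the tumour necrosis factor family, 6 of 7 tested rose in culture at T2 and 0 fell, where 58.1% of all genes were called, among them Tnf (4.30 ± 0.39) and Tnfsf10 (3.86 ± 0.39). In mTEC, Tnf rose between days by 2.06 ± 0.24 and Tnfsf9 by 1.73 ± 0.28, the 2 called among 13 tested, where 3.16% of all genes were called. Of 20 other receptors of the family, 7 of 13 tested rose and 3 fell at T2, against the same 58.1%, with Tnfrsf9 at 5.04 ± 0.60 and Cd27 at -3.52 ± 0.39. In Treg 8 of 17 rose and 2 fell between days, where 29.9% of all genes were called. No gene of the 4 lists was called between genotypes.

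Likeness of pattern was measured as Pearson's r of log2(CPM + 1) over the 16 sorted group means, across 11903 genes, as a description in which the points share libraries and sorts. Tnfrsf12a was most like Fosl1 (r = 0.96), a Fos family transcription factor gene, then Itpkc and Iffo2. Tnfrsf11a was most like H2-Eb2 (r = 0.98), Tnfrsf11b like Slc30a2 (r = 0.99), Cd40 like Slco5a1 (r = 0.98) and Ltbr like Nfix (r = 0.98). Among the ligands, Tnfsf11 was most like Zbed4 (r = 0.96), Cd40lg like Ms4a4b (r = 0.96), Ltb like Adgrl1 (r = 0.99) and Lta like Sag (r = 0.94), a retinal antigen gene. Traf6 was most like Usp10 (r = 0.94).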

How the data were processed

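RNA was measured in 76 libraries made with a SMARTseq low input kit, per the labels' protocols. For the sorted cells, iLN and the cultures the authors deposited whole-number read counts per gene, and for whole thymus the deposited values are TPM (each library sums to 1e+06), although counts had been foreseen in the design. The submitters' processing notes name mm10 and DESeq2 without a role, while aligner, counter and strand setting were not given in the sources used here. Of 55487 gene identifiers, 55094 matched GENCODE vM21, from which symbols, coordinates and exon lengths were taken.

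The counts were fitted with edgeR 4.0.16 in R 4.3.3 (filterByExpr by group, TMM scaling, trended dispersion, glmQLFit with the legacy option, glmQLFTest), with Benjamini-Hochberg adjustment over all genes tested and a threshold of 0.05. The 46 sorted libraries were fitted together for differences between populations and separately within a population for days and genotypes. Whole thymus was tested with limma 3.58.1 (trend) on log2(TPM + 1) of the deposited values, keeping those genes whose mean TPM reached 1, so fold changes there are on that scale and understate changes of low genes. A fold against a group at 0 is a lower bound against 3 counts over the group. Tables were normalized separately, and levels are tested only within a table. Standard errors of log2 fold changes come from these fits and include the spread between libraries, while floors cover counting error only.

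Replicate numbers come from the sample titles, which state no shared source. For Treg and CD4 at d30 all 5 same-numbered pairs deviated together (r from 0.23 to 0.35), so the numbers were taken to pair these libraries, and a replicate block left the count of members called between them at 0. The fits were tested on simulated counts: of genes changed 4-fold, 51.5% were recovered in mTEC against cTEC at d120 (20626 genes), 1.54% between days in cTEC (13788 genes), 77.3% between genotypes in Treg at d120 (14292 genes) and 78.8% in culture T2 against T0 (10824 genes). Between genotypes, 4-fold recovery was 62.1% in culture T2, 47.5% in iLN and 86.4% in whole thymus (simulated TPM). Changes of 2-fold were recovered at 8.82% in mTEC against cTEC at d120, 0% between days in cTEC and 25% in culture T2 against T0. Between genotypes, 2-fold recovery was 13.2% in Treg at d120, 7.35% in culture T2, 1.64% in iLN and 55.9% in whole thymus. Genotypes in cTEC, mTEC and CD4 were not simulated. The members and lists were chosen with earlier results of these data known. From each list the text names up to 4 genes, those with the smallest p, and the likeness rule takes 3 genes per member among genes reaching 5 CPM. Alternatives were DESeq2 1.42.0, RLE scaling, no filter, edgeR's default dispersion, voom with sample weights, fits on fewer groups, a replicate block, and leaving out each library or those under 300000 counts.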

Additional observations from a re-analysis of the deposited data

Results flagged for a closer look

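The change between d30 and d120 differed between populations for 3 of the genes, each by a test of the difference itself. For Tnfrsf12a the change was larger in the epithelial than in the T cell sorts by 3.33 ± 0.39 on the log2 scale (edgeR's quasi-likelihood test, adjusted p = 2.01e-07). For Ltb it was lower in the epithelial sorts by -1.89 ± 0.42 (adjusted p = 0.0051), and within them it was higher in mTEC than in cTEC by 2.47 ± 0.62 (adjusted p = 0.0178). That last call was lost with the compared populations alone (adjusted p = 0.219), with voom (0.0869) and without WT cTEC replicate 2 of d30 (0.0628). For Tnfsf11 it was higher in mTEC than in cTEC by a fitted 7.50 ± 2.07 (adjusted p = 0.0371), a size that depends on the prior count because all cTEC libraries at d120 were at 0. This call was lost with RLE scaling (adjusted p = 0.0592), the default dispersion (0.25), the compared populations alone (0.184), the replicate block (0.109), voom (0.118) and without libraries under 300000 counts (0.0599). It was also lost on leaving out any 1 of 11 libraries, with adjusted p-values from 0.0505 to 0.302. These were SOD1 cTEC replicate 2, WT cTEC replicates 2 and 3, SOD1 mTEC replicates 2 and 3 and WT mTEC replicates 1 and 3 of d30, and WT cTEC replicates 1 and 3, SOD1 mTEC replicate 1 and WT mTEC replicate 2 of d120. The T cell markers of cTEC summed to 1370 to 1847 CPM at d30 and 32.1 to 313 CPM at d120, and their part in the Ltb and Tnfsf11 differences was not tested.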

How the results depend on the processing

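Of 35 counts of members called, 21 were equal in every alternative, and no result reversed. Of these, only epithelial against T cells at d30, mTEC between days and culture T2 against T0 had any member called, the others being at 0. Every other comparison with a member called changed its count in some alternative. In cTEC between days, 2 became 5 with DESeq2, 4 with edgeR's default dispersion and 1 to 4 with one library left out. In CD4 between days, 0 became 2 with DESeq2, 1 with the default dispersion and 3 with voom. In Treg between days, 5 became 3 without the filter and 3 to 5 with one library left out. For Treg against CD4 at d30, 0 became 1 with the default dispersion, 3 in the fit of that day alone, 2 with the compared populations alone and 3 with voom. At d120, 1 became 2, 0, 4 and 6 in the same order. For mTEC against cTEC, 4 at d30 became 7 with voom and 1 to 5 with one library left out, and 6 at d120 became 5 to 8. For epithelial against T cells at d120, leaving out one library gave 7 to 9, and for culture T20 against T0 it gave 5 to 6. For the difference in day change between mTEC and cTEC, 2 became 1 with RLE scaling, 1 with the default dispersion, 0 with the compared populations alone, 0 with voom, 1 without libraries under 300000 counts and 0 to 3 with one library left out. The same difference between epithelial and T cells gave 2 to 3, and between Treg and CD4 0 became 3 with voom. With DESeq2, SOD1 against WT in cTEC at d120 and its difference between days each gave 1 in place of 0. The other comparisons kept their count when one library was left out, all genotype comparisons at 0. The cause of these differences was not tested, beyond the fewer libraries or genes that an alternative uses.

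Same-numbered libraries correlated above 0.1 in 19 of 31 pairs of sorted d30 populations, 13 of 36 at d120 and 6 of 18 pairs of culture times. Own numbers, each among the 2 or 3 libraries of the other group, correlated best in 28 of 31, 32 of 36 and 14 of 18. This is a hint from the data that numbers may mark a shared source. In the d120 labels, each library number of the sorted cells also recurs in every population, always under the same genotype. Except for Treg and CD4 and for CD4 and cTEC at d30, not every pair of a comparison exceeded 0.1, so the block was kept as an alternative. The main estimates between populations and between culture times, Treg against CD4 at d30 included, come from fits without it. A replicate block changed 3 of 35 counts: cTEC between days from 2 to 1, the day change of mTEC against cTEC from 2 to 1, and epithelial against T cells at d120 from 8 to 9.

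Over all genes, the number called depended more on the setting. It was 4852 (3461 to 10365) for mTEC against cTEC at d30 and 6231 (2839 to 6463) at d120, 186 (166 to 2856) and 1140 (170 to 7690) for Treg against CD4, and 8257 (8077 to 14873) and 9388 (6555 to 12608) for epithelial against T cells. It was 677 (203 to 1919) between days in cTEC, 597 (333 to 1794) in mTEC and 1321 (1258 to 2788) in CD4. For the differences in day change it was 896 (821 to 2751), 637 (149 to 1807) and 14 (7 to 2997) for epithelial against T cells, mTEC against cTEC and Treg against CD4. DESeq2's scaling moved the median of all genes by -0.44 for Treg against CD4 at d120 and by 0.37 for mTEC against cTEC at d30. In iLN 2 of 6 libraries had under 300000 counts and 4 of the 10 genes could be tested, and 1 mTEC library of d30 had 15135 counts.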
